A study of Mus musculus with 9 samples.

Results

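Zinc transporters and metallothioneins were followed through the hippocampus of ageing wild-type mice and of 3xTG mice, a model of Alzheimer's disease. The set held 10 genes, namely the metallothioneins Mt1, Mt2 and Mt3, the zinc exporters Slc30a1, Slc30a3, Slc30a4 and Slc30a5, and the zinc importers Slc39a1, Slc39a6 and Slc39a10. Every probe annotated to these genes, under its current or an older symbol, was taken without a filter on missing values, which gave 13 probes of the 29922 in the table, for 10 of its 16637 named genes. Slc30a1, Slc30a3 and Slc30a4 had 2 probes each and the other genes 1. The 9 arrays were 2-colour arrays, each a ratio of a test mouse over a reference mouse, with 3 arrays for each of 3 comparisons: 3xTG over WT at 12 months, 3xTG over WT at 3 months, and WT at 12 over WT at 3 months.

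The 3xTG mice are known to carry human APP and tau transgenes driven by neuronal regulatory sequence of Thy1. The WT mice were labelled 129SV with C57BL6. All mice were female, and RNA of 1 hippocampus, linearly amplified, came from each of 2 mice in each of 4 groups: 3xTG at 12 months, 3xTG at 3 months, WT at 12 months and WT at 3 months. Genotype and age were taken from the sample titles and source names. The extraction text is the same on all 9 arrays and names WT mice of 12 and of 3 months, which on the 6 genotype arrays goes against those labels. Arrays shared mice, within and between comparisons, and the study counted 3 of its 9 arrays as technical replicates, so the 3 arrays of a comparison are not 3 separate animals and an SD over them covers technical spread in part. A ratio gives no level, so the hippocampal label could not be checked by marker abundance, and fewer cells of a type cannot be told apart from less RNA per cell.

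Zinc is stored with glutamate in synaptic vesicles of the hippocampus, above all in the mossy fibres of dentate granule cells, and it binds amyloid-beta. Exporters of the Slc30 family (ZnT proteins) move zinc out of the cytosol, into vesicles, organelles or the medium, and importers of the Slc39 family (ZIP proteins) move it into the cytosol. Metallothioneins are small cysteine-rich proteins that bind zinc and copper. Mt1 and Mt2 are made widely, in brain mainly by astrocytes, and are induced by zinc through the transcription factor Mtf1, whereas Mt3 is the brain form.

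Values are log2 ratios relative to the median of each array, log base 2 being inferred from the values. Each array listed between 45.7 and 54.1% of all probes, and of the 117 possible values of the zinc genes 65 (55.6%) were listed, against 48.6% over all probes. No value between -0.5 and 0.5 was deposited. An unlisted value may have lain in that range or have been left out for another reason, and the table does not tell which. Array medians ran from -1.71 to 2.34 as deposited, so the unlisted range falls at a different place on each array once centred, from -2.83 to -1.83 on 1 array of WT ageing to 1.21 to 2.21 on 1 array of 3xTG over WT at 12 months. Since values near 0 are missing, the median itself is an uncertain centre. The main results of the zinc probes are therefore also given as deposited and relative to abundant transcripts (ribosomal, proteasome, respiratory chain and glycolysis genes). Values of the other genes and markers are given relative to the array median alone, so their sizes and signs may depend on the centring. The median of the abundant transcripts ran from -0.50 to 1.86 as deposited.

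**Figure D1:**
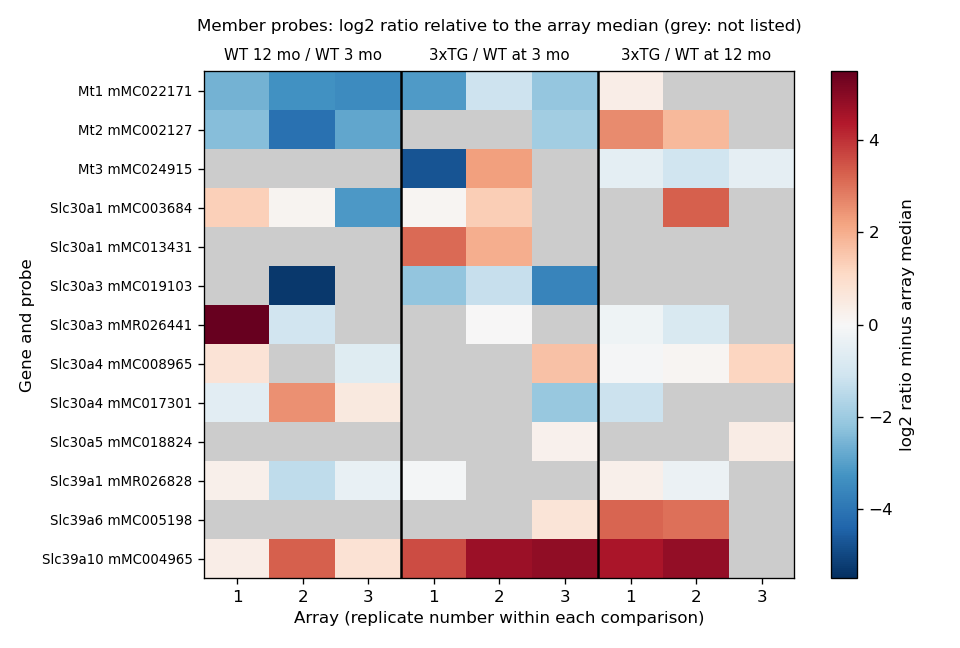
Log2 ratio of each of the 13 probes (rows) on each of the 9 arrays (columns, by replicate number within each comparison), relative to the array median. Red is above and blue below the median, and grey marks values that were not listed. Mt1 and Mt2 are blue on all 3 arrays of WT at 12 over 3 months, and Slc39a10 is red on all 8 arrays that list it.

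Across the zinc genes, Mt1 and Mt2 lay below the array median on every array of WT ageing, Mt1 also on every array of 3xTG over WT at 3 months, and the importer Slc39a10 lay above it wherever it was listed. None of these differences passed the test across all probes. In limma with Benjamini-Hochberg adjustment, 0 of 11183 probes were called for WT ageing (0% above and 0% below 0), 0 of 10336 at 3 months for 3xTG against WT (0% and 0%) and 0 of 10983 at 12 months (0% and 0%). At an unadjusted p under 0.05 stood 808 (7.23%), 836 (8.09%) and 982 (8.94%) of the probes tested. Of the zinc probes, 8, 5 and 6 could be tested in these comparisons. At an unadjusted p under 0.05 stood 2 of the 8, 1 of the 5 and 1 of the 6, and 0 passed after adjustment. Their median fitted log2 ratio was 0.20 for WT ageing, against -0.04 over all probes tested. It was -1.15 at 3 months and 1.60 at 12 months, against -0.06 and 0.16 over all probes tested. As means of the listed arrays, over every zinc probe listed at least once, the medians were -0.52 for WT ageing, 0.01 at 3 months and 0.39 at 12 months, against 0.05, -0.08 and 0.02 over all probes. The sign for WT ageing and at 3 months thus differed between the 2 summaries, and no shared direction of the zinc genes is given.

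Mt1 and Mt2 had low values in WT ageing. Mt1 stood at -2.60, -3.33 and -3.47 on the 3 arrays of WT at 12 over 3 months, a mean of -3.13 ± 0.46 (SD, n = 3 arrays). Mt2 stood at -2.35, -4.09 and -2.86, a mean of -3.10 ± 0.89 (SD, n = 3 arrays). All 6 values were below 0 as deposited as well, from -1.75 to -0.90, although most probes on these arrays were above 0. Mt1 lay at the 14.9th, 8.65th and 8.13th percentile of all listed values of its array, and Mt2 at the 18.1st, 4.53rd and 13.9th. The fitted log2 ratio was -3.03 ± 1.04 (SE, limma adjusted p = 0.628, unadjusted 0.0233) for Mt1 and -3.08 ± 1.04 (SE, limma adjusted p = 0.628, unadjusted 0.026) for Mt2. As deposited the fits were -1.14 and -1.27, and relative to the abundant transcripts -2.46 and -2.50. Of 4083 probes listed on all 3 arrays of WT ageing, 908 (22.2%) were below the median on all 3. Of the 6 zinc probes listed on all 3 arrays, 2 were below on all 3, those of Mt1 and Mt2.

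Markers of the cell types that could carry these transcripts were read beside them, as means of the listed arrays per gene. For WT ageing, 6 of 8 listed astrocyte markers were above and 2 below 0, with a median of 0.72, against -0.04 over all genes. All 7 listed oligodendrocyte markers were below 0, with a median of -1.14, and 6 of 7 listed choroid plexus markers were below 0, with a median of -0.42. Of 7 listed endothelial markers 5 were below 0, with a median of -1.79. For 3xTG over WT at 3 months, the median of 9 listed astrocyte markers was 1.06, with 8 above 0, and 5 of 5 listed choroid plexus markers were above 0, with a median of 1.11. At 12 months 6 of 9 listed astrocyte markers were above 0, with a median of 1.08 against 0.22 over all genes. The part of these cell types in the values of Mt1 and Mt2 was not tested.

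Mt1 was also below the array median in young 3xTG mice. It stood at -3.10, -1.14 and -2.13 on the 3 arrays of 3xTG over WT at 3 months, a mean of -2.12 ± 0.98 (SD, n = 3 arrays). The fitted log2 ratio was -2.33 ± 1.04 (SE, limma adjusted p = 0.626), or -1.70 as deposited and -2.93 relative to the abundant transcripts. Mt2 was listed on only 1 of these arrays, replicate 3, at -1.91. The young WT mice are the reference both here and in WT ageing, so the low Mt1 values of the 2 comparisons are not separate, and a level particular to those WT mice cannot be told apart from an effect of age or genotype. A run of arrays was read from the array numbers in the labels' raw file names, divided from number 86 on. No label names a run, and 2 arrays carry the number 65. With this run as a block, the fit for Mt1 at 3 months was -3.45. That fit stands for the run with the lower array numbers, here replicate 1, and not for the mean of both runs.

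At 12 months the metallothioneins were listed on few arrays of 3xTG over WT. Mt2 stood at 2.61 and 1.78 on replicates 1 and 2 and was not listed on replicate 3. Both listed arrays carry the same 3xTG mouse, in the same dye, so the values rest on 1 animal of that genotype. The fitted log2 ratio of Mt2 was 2.58 ± 1.49 (SE, limma adjusted p = 0.613), or 1.39 as deposited and 0.35 relative to the abundant transcripts. Relative to those transcripts the 2 arrays stood at 0.57 and -0.31, so they did not share a sign there. Mt1 was listed on replicate 1 alone, at 0.37, which is -0.50 as deposited and at the edge of the unlisted range. The WT mice of 12 months are the reference here and the test mice of WT ageing, so the high Mt2 values here and its low values there share those mice.

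**Figure D2:**
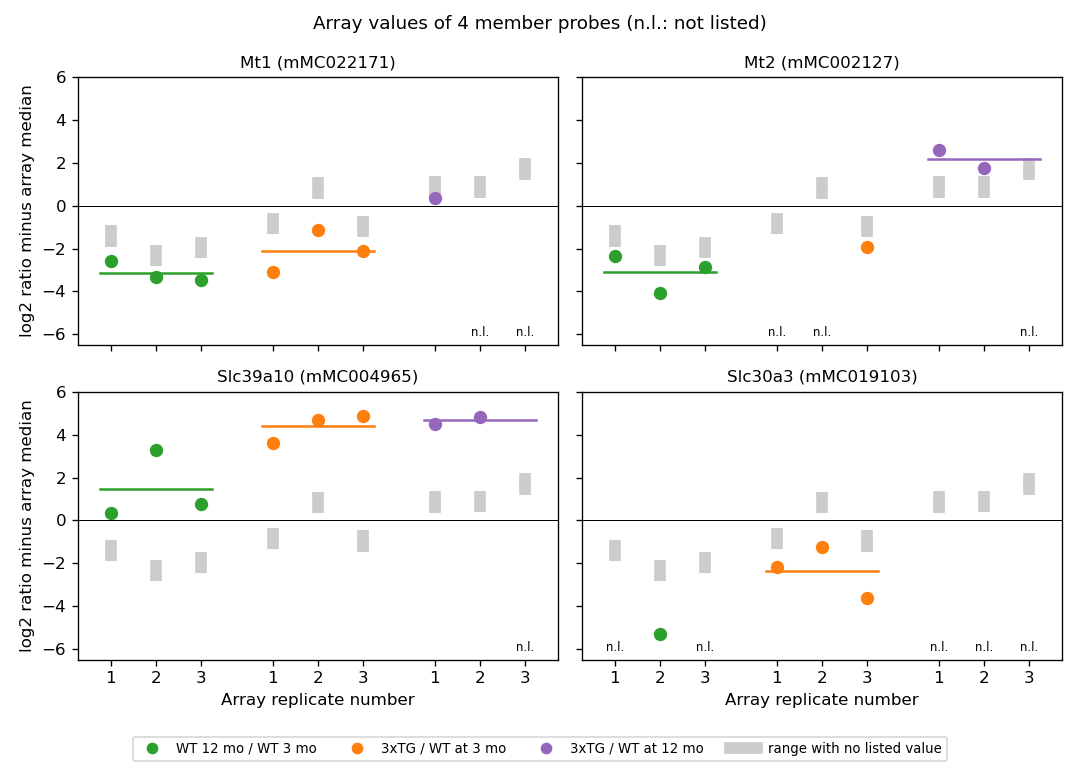
Log2 ratio minus the array median (vertical axis) on each array (horizontal axis, replicate number) for probes of Mt1, Mt2, Slc39a10 and Slc30a3. Points are single arrays, coloured by comparison, horizontal lines are means of the listed arrays, grey bars mark the range in which an array lists no value, and n.l. marks arrays that do not list the probe. Mt1 lies between -3.47 and -2.60 for WT ageing, and Slc39a10 between 3.61 and 4.89 for 3xTG over WT at 3 months.

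Mt3 is a metallothionein of neurons and astrocytes first described as growth inhibitory factor. No array of WT ageing listed it, so it could not be set beside Mt1 and Mt2 there. In 3xTG over WT at 12 months all 3 arrays did, at -0.55, -1.11 and -0.51, a mean of -0.72 ± 0.34 (SD, n = 3 arrays). These values are close to each other and all below 0, and as deposited they were -1.42, -1.98 and -2.22. Of 3836 probes listed on all 3 arrays at 12 months, 777 (20.3%) were below the median on all 3 and 29.7% above on all 3. Of the zinc probes, Mt3 and 1 of Slc30a4 were listed on all 3, so 1 of 2 was below on all 3 and 0 of 2 above. The fitted log2 ratio was -0.74 ± 2.02 (SE, limma adjusted p = 0.932). At 3 months Mt3 stood at -4.75 on replicate 1 and 2.27 on replicate 2, a difference wider than for any other zinc probe in that comparison, and its fit was -1.15 ± 2.88 (SE, limma adjusted p = 0.925). The arrays differ in the 3xTG mouse and in the run as read from the array numbers, which no label names. With the run as a block, the fits for Mt3 were -4.00 at 3 months and -3.58 at 12 months. These stand for the run with the lower array numbers, replicate 1 in both comparisons, and not for the mean of both runs. They would differ with the other run as the base, so no direction is drawn from them.

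Mt3, Mt2 and Mt1 neighbour each other on mouse chromosome 8, and the first bases around their starts are shown because Mt1 and Mt2 lay on the same side of the median in WT ageing and Mt3 was not listed there. The windows run from 250 bases before to 50 bases after the start (RefSeq, GRCm38.p6), 5′ to 3′. The starts used for Mt1 and Slc30a1 lie inside their RefSeq genes, which begin at bases 94178883 and 191906697. Match positions and counts therefore depend on the start used. Capitals mark TGCACNC or TGCGCNC on either strand, the core of the metal response element that Mtf1 binds, and no 2 matches overlap. Slc30a1, a zinc exporter also known as an Mtf1 target, is shown beside them.
Mt1 (chr8:94178839-94179138, plus strand): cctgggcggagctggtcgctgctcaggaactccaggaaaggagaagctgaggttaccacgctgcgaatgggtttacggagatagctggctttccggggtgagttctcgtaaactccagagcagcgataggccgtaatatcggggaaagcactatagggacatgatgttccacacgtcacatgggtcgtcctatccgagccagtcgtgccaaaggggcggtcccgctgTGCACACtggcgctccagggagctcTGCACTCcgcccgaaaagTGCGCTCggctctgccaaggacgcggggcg
Mt2 (chr8:94172368-94172667, plus strand): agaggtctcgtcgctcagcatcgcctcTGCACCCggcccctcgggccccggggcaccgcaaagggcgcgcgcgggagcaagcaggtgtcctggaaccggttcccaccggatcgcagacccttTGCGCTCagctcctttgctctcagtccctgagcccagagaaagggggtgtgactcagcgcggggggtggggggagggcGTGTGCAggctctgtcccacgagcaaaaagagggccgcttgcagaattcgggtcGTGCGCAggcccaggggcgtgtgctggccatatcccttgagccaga
Mt3 (chr8:94152357-94152656, plus strand): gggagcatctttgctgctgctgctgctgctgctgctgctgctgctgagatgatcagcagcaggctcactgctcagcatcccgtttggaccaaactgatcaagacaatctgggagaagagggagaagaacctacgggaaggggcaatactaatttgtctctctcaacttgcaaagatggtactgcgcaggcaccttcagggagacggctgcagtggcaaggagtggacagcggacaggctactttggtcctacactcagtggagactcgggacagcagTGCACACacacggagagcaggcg
Slc30a1 (chr1:191906531-191906830, plus strand): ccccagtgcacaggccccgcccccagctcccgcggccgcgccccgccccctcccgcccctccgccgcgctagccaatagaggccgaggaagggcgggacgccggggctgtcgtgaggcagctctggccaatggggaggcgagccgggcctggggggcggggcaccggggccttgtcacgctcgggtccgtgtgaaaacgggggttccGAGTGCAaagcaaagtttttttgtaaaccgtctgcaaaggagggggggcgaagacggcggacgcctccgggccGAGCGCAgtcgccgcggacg

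The Mt2 window held 4 matches, the Mt1 window 3, the Slc30a1 window 2 and the Mt3 window 1. In Mt1 the matches began at bases -23, 3 and 21 from the start, and in Mt3 at base 28. Over all 32851 windows of this length, 25.7% held at least 1 match, 7.11% at least 2, 1.97% at least 3 and 0.517% at least 4. Slc30a4 also held 3, Slc30a5 1 and 1 of the 2 windows of Slc30a3 held 1, whereas those of Slc39a1 and Slc39a10 held none. A match is a description of these letters and not a bound site. Mtf1 itself had 2 probes. In WT ageing the probe mMC023389 stood at 0.66 and 0.92 on replicates 2 and 3, and mMR031213 at 0.17 on replicate 1. At 3 months mMC023389 stood at -1.36 and -3.19 on replicates 1 and 3, and mMR031213 at 1.82 and 2.33 on replicates 1 and 2, so the Mtf1 probes lay on opposite sides. At 12 months mMC023389 stood at -3.92 on replicate 2 and mMR031213 at 0.30 on replicate 1. Mt4, a metallothionein of squamous epithelia, stood at -4.74 and 1.97 on replicates 1 and 3 of WT ageing, at 0.16 on replicate 3 at 3 months and at -0.05 and -2.96 on replicates 2 and 3 at 12 months. The Mt4 arrays of WT ageing fell on opposite sides of the median.

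Slc39a10, or ZIP10, a zinc importer of the plasma membrane, had the highest values of the set in both genotype comparisons. On the arrays of 3xTG over WT at 3 months it stood at 3.61, 4.71 and 4.89, a mean of 4.40 ± 0.69 (SD, n = 3 arrays). These lay at the 96.5th, 96.7th and 98.5th percentile of their arrays. At 12 months it stood at 4.51 and 4.84 on replicates 1 and 2, at the 97.0th and 97.7th percentile, and it was not listed on replicate 3, the only array of the second 3xTG mouse of that age. In WT ageing it stood at 0.37, 3.27 and 0.79, a mean of 1.48 ± 1.57 (SD, n = 3 arrays). All 8 values were above 0 as deposited too, from 1.78 to 5.86. Of 3607 probes listed on all 3 arrays at 3 months, 1115 (30.9%) were above the median on all 3. Of the 3 zinc probes so listed, 1 was above on all 3, that of Slc39a10. In WT ageing 669 of 4083 probes (16.4%) were above on all 3, and 1 of the 6 zinc probes was, again Slc39a10.

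The fitted log2 ratio of Slc39a10 was 4.33 ± 1.08 (SE, limma adjusted p = 0.607, unadjusted 0.00412) at 3 months and 4.49 ± 1.35 (SE, limma adjusted p = 0.551, unadjusted 0.0108) at 12 months. By unadjusted p it ranked 46th of 10336 and 127th of 10983 probes. In WT ageing the fit was 1.48 ± 1.08 (SE, limma adjusted p = 0.878). As deposited these fits were 4.95, 3.79 and 3.35, and relative to the abundant transcripts 3.69, 2.37 and 2.05. The signs of these 3 fits did not depend on the centring. Markers of CA1 to CA3 pyramidal cells were also mostly above 0 in the genotype comparisons. At 3 months 8 of 10 were, with a median of 0.95, and at 12 months 9 of 10, with a median of 2.07. Over all genes the medians were -0.03 and 0.22. At 3 months 8 of 9 astrocyte, 5 of 6 oligodendrocyte and 5 of 5 choroid plexus markers were above 0 too. Of dentate granule, inhibitory neuron, microglia and endothelial markers 3 of 6, 2 of 7, 2 of 5 and 2 of 6 were. At 12 months 6 of 9 astrocyte, 3 of 5 oligodendrocyte and 5 of 7 inhibitory neuron markers were above 0. So were 4 of 6 microglia, 4 of 7 choroid plexus, 3 of 6 dentate granule and 2 of 5 endothelial markers. The abundant transcripts lay at 2.045, 2.087 and 1.207 relative to the median of the 12-month arrays. In WT ageing 5 of 8 pyramidal markers were below 0. The part of these cells in the Slc39a10 values was not tested. Without replicate 2 of WT ageing the fit for WT ageing was 0.73. Set against each other, the older minus the younger genotype comparison gave a difference of 0.15 ± 1.68 (SE, limma adjusted p = 0.997), or -1.17 as deposited and -1.32 relative to the abundant transcripts, so its sign turned with the centring. Of 6807 probes for which this difference could be tested, 248 (3.64%) stood at an unadjusted p under 0.05, and 0 of the 2 zinc probes, Slc39a10 and Mt3, did. The Mt3 difference was 0.41 ± 3.37 (SE, limma adjusted p = 0.997). The 2 genotype comparisons share no mouse, while WT ageing shares its WT mice with each of them.

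Slc39a10 was the only probe of the set with at least 8 listed arrays, so likeness of pattern was read for it alone. Among 209 probes of other genes listed on the same 8 arrays, those with the highest Pearson correlation of log2 ratios were Flcn (r = 0.947), Zdhhc17 (r = 0.947) and Lrrc59 (r = 0.931). These were picked as the highest of 209 over 8 arrays that share mice.

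**Figure D3:**
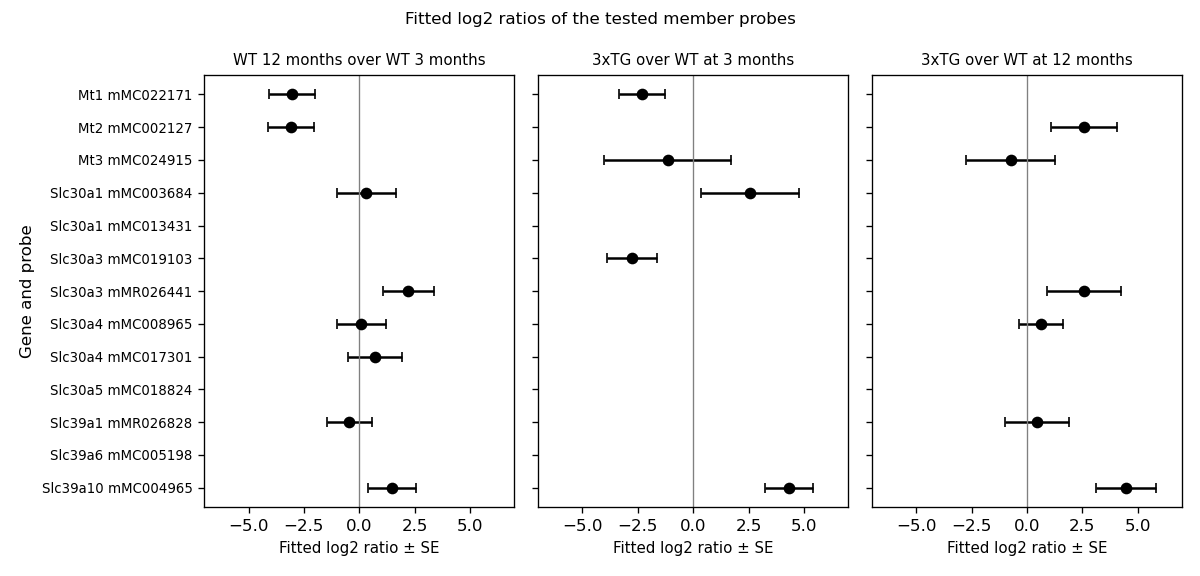
Fitted log2 ratio with its SE (horizontal axis) for each zinc probe that could be tested (vertical axis), in 3 panels, WT ageing, 3xTG against WT when young (3 months) and when old (12 months). Probes with no point had too few listed arrays. Slc39a10 lies at 4.33 and 4.49 in the genotype panels, and Mt1 and Mt2 at -3.03 and -3.08 in the ageing panel.

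The other importers were listed on fewer arrays. Slc39a6, or ZIP6, a plasma membrane importer that pairs with ZIP10, stood at 3.18 and 3.01 on replicates 1 and 2 of 3xTG over WT at 12 months, which share a 3xTG mouse. It stood at 0.72 on replicate 3 at 3 months and was listed on no array of WT ageing, so it could not be tested. The 12-month values lay at the 90.9th and 89.4th percentile and were 2.31 and 2.14 as deposited. Slc39a1, or ZIP1, a widely expressed importer, stayed near the median. It stood at 0.28, -1.41 and -0.42 in WT ageing, a mean of -0.52 ± 0.85 (SD, n = 3 arrays). On replicate 1 at 3 months it stood at -0.12, and at 12 months at 0.29 and -0.31 on replicates 1 and 2. Its fits were -0.45 ± 1.02 (SE, limma adjusted p = 0.988) for WT ageing and 0.45 ± 1.47 (SE, limma adjusted p = 0.944) at 12 months. As deposited both signs turned, to 1.36 and -0.75, so no direction is given for Slc39a1.

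Among the exporters, Slc30a3 encodes ZnT3, which loads zinc into synaptic vesicles of mossy fibre and other glutamatergic terminals. Its probe mMC019103 stood at -2.16, -1.25 and -3.62 on the arrays of 3xTG over WT at 3 months, a mean of -2.34 ± 1.19 (SD, n = 3 arrays). All 3 were below 0 as deposited, from -2.65 to -1.32. Of 3607 probes listed on all 3 arrays, 752 (20.8%) were below on all 3, and 2 of the 3 zinc probes were, those of Mt1 and Slc30a3. The fitted log2 ratio was -2.77 ± 1.13 (SE, limma adjusted p = 0.626), or -2.08 as deposited and -3.38 relative to the abundant transcripts. In WT ageing this probe was listed on replicate 2 alone, at -5.29, and it was listed on no array at 12 months. Markers of dentate granule cells, which make the mossy fibres, had 3 genes above and 3 below 0 at 3 months, with a median of 0.58 against -0.03 over all genes. Of 10 listed markers of CA1 to CA3 pyramidal cells, which are also glutamatergic, 8 were above 0, with a median of 0.95. The part of these cells in the Slc30a3 values was not tested.

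The second Slc30a3 probe, mMR026441, gave other values. On replicate 2 at 3 months it stood at 0.01, where the first probe stood at -1.25. In WT ageing it stood at 5.48 and -1.04 on replicates 1 and 2, and the first probe at -5.29 on replicate 2. At 12 months it stood at -0.22 and -0.84 on replicates 1 and 2. The fit gave 2.22 ± 1.13 (SE, limma adjusted p = 0.784) for WT ageing and 2.58 ± 1.67 (SE, limma adjusted p = 0.657) at 12 months. The 12-month fit has the opposite sign to both of its arrays, since the dye term was set by the wide gap between the arrays of WT ageing. Without the dye term the 12-month fit was -0.53. The WT ageing coefficient and the dye term together absorb that gap, so neither SE measures it. The 2 probes of Slc30a3 therefore give no shared direction, and averaged over both probes the gene stood at -1.90 at 3 months (SE 1.53, limma adjusted p = 0.597).

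Slc30a1, or ZnT1, exports zinc across the plasma membrane. Its probe mMC003684 stood at 1.33, 0.14 and -3.18 in WT ageing, a mean of -0.57 ± 2.34 (SD, n = 3 arrays), so the arrays fell on both sides. At 3 months it stood at 0.09 and 1.35 on replicates 1 and 2, and the second probe, mMC013431, at 3.11 and 2.02 on the same arrays. All 4 values of Slc30a1 at 3 months were above the array median, and above 0 as deposited. Relative to the abundant transcripts, mMC003684 was at 0.25 and -0.27 and mMC013431 at 3.27 and 0.40, so they did not share a sign there. Both arrays have the same WT mouse as reference. The fit of mMC003684 was 0.32 ± 1.33 (SE, limma adjusted p = 0.993) for WT ageing and 2.56 ± 2.21 (SE, limma adjusted p = 0.766) at 3 months. The 3-month fit was 0.08 without the dye term and 1.31 without replicate 3 of WT ageing. At 12 months it was listed on replicate 2 alone, at 3.27. The second probe had too few listed arrays to be tested.

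Slc30a4, or ZnT4, moves zinc into endosomes and is the gene of the lethal milk mutation. Its probe mMC008965 stood at -0.07, 0.09 and 1.18 at 12 months, a mean of 0.40 ± 0.68 (SD, n = 3 arrays), at 0.76 and -0.68 on replicates 1 and 3 of WT ageing, and at 1.62 on replicate 3 at 3 months. The probe mMC017301 stood at -1.19 on replicate 1 at 12 months, at -0.59, 2.51 and 0.56 in WT ageing and at -2.09 on replicate 3 at 3 months. On 3 of the 4 arrays that list both, the 2 probes of Slc30a4 lay on opposite sides of the median. The fits were 0.09 ± 1.10 and 0.72 ± 1.22 (SE) for WT ageing and 0.63 ± 0.99 (SE) for mMC008965 at 12 months, with limma adjusted p of 0.997, 0.976 and 0.866. Slc30a5, or ZnT5, which supplies zinc to enzymes of the secretory pathway, was listed on 2 arrays only, replicate 3 at 3 months at 0.25 and replicate 3 at 12 months at 0.39, and was not tested.

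**Figure D4:**
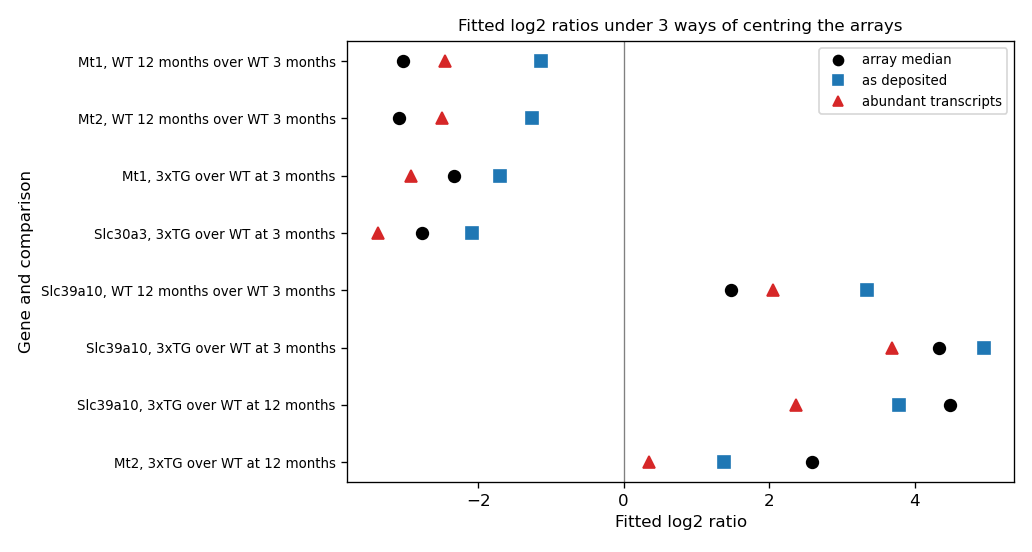
Fitted log2 ratio (horizontal axis) of Mt1, Mt2, Slc30a3 (probe mMC019103) and Slc39a10 in single comparisons (vertical axis), with arrays centred on their median (circles), as deposited (squares) and relative to abundant transcripts (triangles). No sign of a fit shown turns, while the fit of Mt2 at 12 months ranges from 0.35 to 2.58.

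The rest of the zinc pathway was read from lists of the other family members and of related metal genes. Of the other Slc30 exporters, 3 probes could be tested for WT ageing, 2 at 3 months and 2 at 12 months, and 0 were called above or below 0. The fits were too few for a median to describe the list. As means of the listed arrays, the median over the listed genes was 0.26 for WT ageing, 0.21 at 3 months, with 3 genes above and 3 below 0, and 0.10 at 12 months. At 3 months Slc30a10, a manganese and zinc exporter named here after its values were seen, stood at -4.29 and -4.42 on replicates 2 and 3. Slc30a6, or ZnT6, a partner of ZnT5 in the early secretory pathway, stood at 2.96, 4.38 and 5.02 at 3 months, a mean of 4.12 ± 1.06 (SD, n = 3 arrays). Its fit was 4.20 ± 0.98 (SE, limma adjusted p = 0.607) there and 4.44 ± 1.17 (SE, limma adjusted p = 0.551) at 12 months. In WT ageing Slc30a6 was above the median too, at 3.43 and 1.47 on replicates 1 and 3. The fit there was 2.45 ± 1.17 (SE, limma adjusted p = 0.743). The probe mMC019063 of Slc30a9, a mitochondrial zinc exporter, stood at -3.05, -7.46 and -1.22 in WT ageing, all below the median but far apart.

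Of the other Slc39 importers, 2, 4 and 2 probes could be tested in WT ageing, at 3 months and at 12 months, with 0 called. As means of the listed arrays, the median over the listed genes was 0.06, 0.47 and 2.12, with 4 of 8, 5 of 8 and 7 of 10 genes above 0. Slc39a9, or ZIP9, an importer of the Golgi and plasma membrane, stood at 1.15, 0.17 and 3.75 at 3 months on its probe mMC013355, all above the median. At 12 months this probe stood at 4.31 and 6.03 on replicates 2 and 3, with a fit of 5.17 ± 1.28 (SE, limma adjusted p = 0.551). A second Slc39a9 probe, mMC022046, stood at -4.04 on replicate 2 at 12 months, so the probes lay on opposite sides on that array. Among metallothionein control and zinc-binding genes, 4, 2 and 2 probes were tested with 0 called. S100b, a calcium- and zinc-binding protein of astrocytes, stood at -5.32 and -3.95 on replicates 2 and 3 of WT ageing. That comparison shares its WT mice with both genotype comparisons. In 3xTG over WT, S100b stood at -1.81, -1.44 and -3.94 at 3 months and at 1.74, 2.07 and 7.76 at 12 months. Its 3 arrays thus lay on opposite sides at the 2 ages. The difference between these genotype comparisons was 6.80 ± 2.21 (SE, limma adjusted p = 0.99) and did not pass.

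Copper and iron handling genes had 7 probes tested in each comparison, with 0 called. The median fits were 0.97 for WT ageing, 1.17 at 3 months and 2.20 at 12 months. Over all probes tested they were -0.04, -0.06 and 0.16. As means of the listed arrays, over all listed genes of the list, the medians were lower than its median fits. They were 0.21, 0.78 and 0.49, with 8 of 15, 13 of 16 and 8 of 14 genes above 0. At 3 months 7 of the 7 tested probes, of 22 in the list, were fitted above 0. Among them mMC023354 and mMR030154 are of the same gene, Atp7b. Fth1, the ferritin heavy chain, stood at 2.11, 3.94 and 2.68 at 3 months. At 12 months 5 of 7 were above 0. The abundant transcripts themselves lay at 2.045, 2.087 and 1.207 relative to the median of the arrays at 12 months. Tfrc, the transferrin receptor, stood at 4.69, 2.75 and 5.11 there and Slc40a1, the iron exporter ferroportin, at 1.86, 3.71 and 2.69, with fits of 4.01 ± 1.25 and 3.03 ± 1.12 (SE, limma adjusted p = 0.551 for both).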

How the data were processed

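Arrays were grouped by titles and source names, which give the mouse, age and genotype of each channel, against which the extraction text of the genotype arrays differs. The authors deposited log2 ratios of 29922 probes. The scanner files named in the labels were not used here, and for background correction, filter and normalization the deposited labels name no method. Ratios were read as test over reference. The overall sign rests on the labels, and within comparisons the arrays with swapped dyes had correlations of 0.197 to 0.308 across probes.

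Each array was centred on its median. A generalised least squares fit with a coefficient per comparison and a dye term was moderated with limma 3.58.1 in R 4.3.3, and p-values were adjusted over all probes tested (threshold 0.05). The covariance came from shared mice, with a between-mouse to between-array variance ratio of 1.02, estimated on 142 complete probes. A probe was tested where at least 2 of the 3 arrays listed it and 1 residual degree of freedom was left. The code was tested on simulated data. Symbols were updated through RefSeq (GRCm38.p6). Named are all zinc probes, Mt4, Mtf1 and, of each list of metal genes, up to 4 genes with 1 sign on all 3 arrays. Cell type markers are given as counts and medians alone, although some of them had 1 sign on all 3 arrays too. The members and lists were chosen with earlier results of these data known. Alternatives covered the centring, dye, shared mice, array run, replicate number, gene means and leaving out each array. Spot brightness is not known here, and precision is set by how few arrays there are. The full strain label of the 3xTG mice is not reported here.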

Additional observations from a re-analysis of the deposited data

How the results depend on the processing

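Under 19 alternative settings all 75 counts of called probes were 0, with a smallest limma adjusted p of 0.156. Of 317 values of zinc probes under alternatives, 282 kept their direction, 0 became called and 35 reversed. Read as Cy5 over Cy3, the fits reversed for Mt1 (0.40 in WT ageing, 0.35 at 3 months), Mt2 (0.79 in WT ageing, -4.88 at 12 months), Mt3 (0.68 at 3 months, 0.27 at 12 months, -0.41 for the difference between ages), Slc30a1 (-1.47 at 3 months), Slc30a4 mMC017301 (-1.45 in WT ageing), Slc39a1 (0.77 in WT ageing, -0.14 at 12 months) and Slc39a10 (-1.06 in WT ageing, -1.87 at 12 months, -2.35 for the difference), so the directions of these 14 of 21 fits rest on the reading as test over reference. The other 7 kept their sign, among them Slc39a10 at 3 months at 0.48 and Slc30a3 mMC019103 at -0.78. As deposited, Slc39a1 was at 1.36 in WT ageing and -0.75 at 12 months, Slc30a4 mMC008965 at -0.65 at 12 months, and the differences between ages at -0.46 for Mt3 and -1.17 for Slc39a10. Relative to the abundant transcripts the same values were 0.13, -1.79, -1.09, -0.92 and -1.32. Without the dye term Slc30a1 was at -0.24 and Slc30a4 mMC008965 at -0.0095 in WT ageing, and Slc30a3 mMR026441 at -0.53 and Slc39a1 at -0.011 at 12 months. Slc30a1 in WT ageing was also at -0.10 with arrays independent, -0.042 on that comparison alone and -0.0096 as a gene mean, and ran from -0.93 to 0.73 with single arrays left out. The Slc39a10 difference ran from -0.41 to 0.52 with single arrays left out. The cause of these reversals was not tested. Same-numbered arrays correlated at -0.064 to 0.168. Some of them share a WT mouse, as replicate 1 of WT ageing and of 3xTG over WT at 3 months do. These correlations therefore do not show whether the numbers pair mice. With the replicate number as a block, 0 probes were called and the Slc39a10 difference was -0.049. The Slc39a10 fit at 3 months was then 4.28, which stands for replicate 1 and not for the mean of the replicates.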
